A study of Mus musculus with 14 samples.

Results

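Aminoacyl-tRNA synthetases are the enzymes that load each amino acid onto its transfer RNA (tRNA). They were examined in the RNA-seq of mouse MLL-AF9-Cas9+ leukemia cells. The genes were chosen by symbol, with earlier results of these data known. The choice took the names of the synthetase family, with Eprs, Farsa and Farsb, and with the scaffold proteins Aimp1 and Aimp2. This gave 40 of the 22155 genes in the count table, made up of 21 cytosolic enzymes, 17 mitochondrial enzymes, whose symbols end in 2, and 2 scaffolds. Tarsl2 was placed with the cytosolic enzymes although its symbol ends in 2, because it is the cytosolic paralog of Tars. The 40 genes lie on 16 chromosomes, and all 40 had enough counts to be tested.

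The cells are a mouse leukemia line driven by the MLL-AF9 fusion oncoprotein and carry the Cas9 nuclease. They were infected with lentivirus made from the ipUSEPR vector, which expresses a guide RNA and a puromycin resistance gene. The guide was either sgCtrl, against nonessential sequence, or sgSgf29, against Sgf29, a subunit of the SAGA and ATAC histone acetyltransferase complexes that binds trimethylated lysine 4 of histone H3. Both groups had the fusion, Cas9, the vector and selection with puromycin (2 µg/ml, 3 days), and each had 3 RNA-seq libraries. The remaining libraries of the 14 in the series are of chromatin and were not analysed here. The labels number the samples of a group from 1 to 3. They do not say whether these are separate transductions, separate cultures or different guide sequences. The p-values therefore measure only the spread between these libraries, which may be technical.

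Each synthetase activates its amino acid with ATP and transfers it to the matching tRNA, and the genetic code is read correctly only if this step is accurate. The family divides by the fold of its catalytic domain into class I and class II. In mammals most enzymes of the mitochondrion are encoded by nuclear genes of their own, whereas Gars and Kars each make both the cytosolic and the mitochondrial form. Several cytosolic enzymes, Eprs among them, are held together with Aimp1 and Aimp2 in the multisynthetase complex. Many of the cytosolic genes are textbook targets of ATF4, the transcription factor that is made when amino acids run short and that binds the C/EBP-ATF response element (CARE). Cells that grow fast, leukemia cells among them, need a steady supply of charged tRNA.

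The sequences at the start of these genes were searched for short motifs, and a link of the motifs to the changes below was not tested. RefSeq promoter windows on GRCm38.p6, from 250 bases before to 50 bases after the annotated start, were used for 30 of the 40 genes. Cars, Hars, Lars, Nars, Rars, Vars, Wars, Hars2 and Pars2 were among those with no window here. These motifs were searched on both strands: CARE as TGATGNAA, the E-box as CACGTG, the ETS motif as CCGGAAG and the NRF1 motif as GCGCANGCG, where N is any base. CARE letters were found for 5 of 14 cytosolic genes (Aars, Gars, Iars, Tars and Yars, 35.7%) and for 0 of 14 mitochondrial genes, against 4.0% of all 32851 windows. The windows of Gars, Yars and Iars are shown as examples with CARE letters, and that of Vars2 as a mitochondrial gene with a strong fall. They are printed 5′ to 3′ in the direction of the gene, with every match to any of the motifs in capitals.
Gars, chr6:55037751-55038050, plus strand: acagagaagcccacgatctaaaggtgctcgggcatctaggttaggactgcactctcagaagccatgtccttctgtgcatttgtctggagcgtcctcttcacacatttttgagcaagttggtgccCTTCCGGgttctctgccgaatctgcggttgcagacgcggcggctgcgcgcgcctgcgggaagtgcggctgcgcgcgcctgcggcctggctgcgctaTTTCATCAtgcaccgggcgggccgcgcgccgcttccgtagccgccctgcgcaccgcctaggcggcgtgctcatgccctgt
Yars, chr4:129189653-129189952, plus strand: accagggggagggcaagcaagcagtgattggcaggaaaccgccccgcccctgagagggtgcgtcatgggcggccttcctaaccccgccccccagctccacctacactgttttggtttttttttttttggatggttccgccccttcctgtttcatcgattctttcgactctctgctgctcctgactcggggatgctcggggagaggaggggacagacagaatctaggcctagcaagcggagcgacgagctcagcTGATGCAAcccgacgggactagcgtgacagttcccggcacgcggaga
Iars, chr13:49681880-49682179, plus strand: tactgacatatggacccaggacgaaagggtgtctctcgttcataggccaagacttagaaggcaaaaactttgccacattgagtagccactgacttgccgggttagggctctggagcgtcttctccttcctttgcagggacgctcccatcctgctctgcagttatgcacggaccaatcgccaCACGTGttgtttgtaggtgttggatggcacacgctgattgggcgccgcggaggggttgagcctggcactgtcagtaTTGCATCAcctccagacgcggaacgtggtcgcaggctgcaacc
Vars2, chr17:35667543-35667842, minus strand: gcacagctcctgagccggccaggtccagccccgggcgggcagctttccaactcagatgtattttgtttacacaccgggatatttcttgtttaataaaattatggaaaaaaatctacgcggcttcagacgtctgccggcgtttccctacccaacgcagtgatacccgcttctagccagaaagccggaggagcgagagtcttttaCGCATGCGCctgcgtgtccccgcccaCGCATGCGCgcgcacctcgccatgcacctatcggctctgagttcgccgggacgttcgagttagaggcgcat

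In Gars the match nearest the start, TTTCATCA, is CARE read on the other strand and begins at position -30, and the match farther upstream is the ETS motif. In Yars the capitals mark CARE at position 4 after the start. In Iars they mark an E-box at -69 and CARE, on the other strand, at 8. In Vars2 both runs are the NRF1 motif on the other strand, and in these 4 windows no match overlaps another. The E-box letters were found for 4 of 14 cytosolic genes (Aars, Farsb, Iars and Tars) and 1 of 14 mitochondrial genes (Ears2), against 7.2% of all windows. ETS letters were found for 5 of 14 cytosolic and 4 of 14 mitochondrial genes and for both scaffolds (8.9% of all windows), and NRF1 letters for 3 and 4 of 14 (6.2% of all windows). A gene counted as a holder if any of its windows matched, and Aars2 and Aimp1 have more than 1 window. The shares of all windows count each window by itself, so the units differ. A match describes the letters of a window and not the binding of a factor.

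Sgf29 mRNA, the target of the guide, was measured first. It was at 36.2, 40.4 and 40.4 CPM (counts scaled to a fixed library size after edgeR's TMM correction) in the sgCtrl libraries and at 12.6, 13.4 and 17.4 CPM in the sgSgf29 libraries. The groups did not overlap. In the quasi-likelihood test of edgeR, sgSgf29 against sgCtrl gave -1.43 on the log2 scale, with a standard error of 0.11 and an adjusted p = 2.88e-10. Gene counts were 16003990 to 21786618 per library. Of 9 myeloid leukemia markers all were detected, 4 fell and 4 rose (adjusted p under 0.05), and their summed level was 14686 to 16065 CPM in sgCtrl and 10692 to 11017 CPM in sgSgf29, most of it Elane. Those that fell were Mpo (-1.83 on the log2 scale), Hoxa9 (-1.37), Kit (-0.74) and Elane (-0.61). Itgam (1.96), Ptprc (0.65), Meis1 (0.46) and Spi1 (0.32) rose, and Cebpa (0.03) did not pass. Itgam, a surface marker of mature myeloid cells, was at 129 to 145 CPM in sgCtrl and at 497 to 566 CPM in sgSgf29. A change of maturation was not tested. Of 10 markers of other blood and stromal cells, 6 had 0 counts in every library (Hba-a1, Hbb-bs, Cd3e, Pf4, Cpa3 and Epcam), 1 was tested and was lower (Itga2b), and their summed level was 2.30 to 3.30 CPM in sgCtrl and 1.05 to 1.80 CPM in sgSgf29. Genes of the cytoplasmic ribosomal proteins took 18.9% to 19.6% of gene counts in sgCtrl and 12.1% to 13.7% in sgSgf29. These shifts moved together with the synthetases below, and their part in the synthetase results was not tested. In bulk RNA, fewer cells of a kind and less RNA per cell cannot be told apart.

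The synthetase genes were lower in the sgSgf29 cells in both compartments. Among cytosolic enzymes 20 of 21 fell and 0 rose (adjusted p under 0.05, edgeR). The median of the 21 log2 fold changes was -0.58, a fall of 33.0%. Among mitochondrial enzymes 15 of 17 were lower and 0 were higher, with a median of -0.51. Both scaffolds were lower. Of all 11169 genes tested, 34.4% were lower and 35.4% were higher, and their median log2 fold change was 0.01. In 36 of the 40 synthetase and scaffold genes the highest sgSgf29 value was below the lowest sgCtrl value, against 35.1% of all genes tested. The single cytosolic enzyme that did not pass was Tarsl2, and the mitochondrial ones were Hars2 and Fars2. Scaling to library size alone raised the median of all genes to 0.24, a scale on which 16 cytosolic and 9 mitochondrial enzymes were lower, 0 were higher, and the estimates of Dars, Iars2, Tarsl2, Fars2 and Hars2 turned slightly positive. On that scale the medians were -0.35 and -0.28, and 21.4% of all genes were lower and 49.9% higher.

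**Figure D1:**
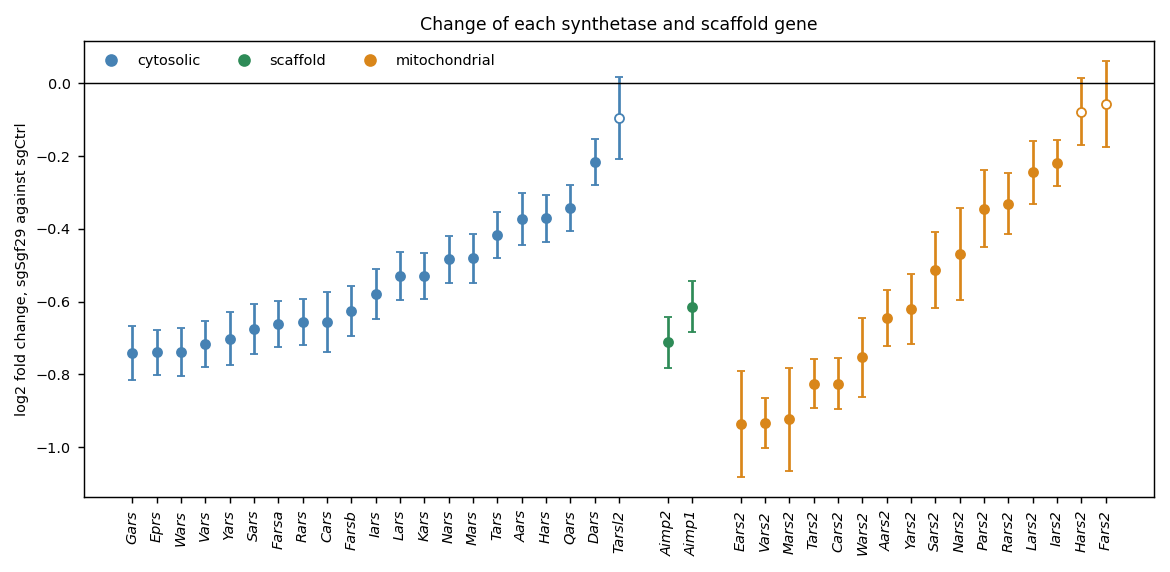
Log2 fold change of sgSgf29 against sgCtrl for 39 of the 40 genes (vertical axis), ordered within cytosolic enzymes (blue), scaffolds (green) and mitochondrial enzymes (orange). Bars are the standard error of edgeR's fit, filled points passed an adjusted p of 0.05, open points (Tarsl2, Hars2 and Fars2) did not, and all 39 estimates lie below 0 with TMM scaling, while 5 of them lie above 0 with library size alone.

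Among the cytosolic enzymes the largest falls were close to one another in size. Gars (chr6:55038001-55079504), the glycine enzyme, went from 302, 313 and 342 CPM in the sgCtrl libraries to 213, 184 and 177 CPM in the sgSgf29 libraries, or -0.74 on the log2 scale (standard error 0.07, adjusted p = 1.98e-08). Eprs (chr1:185361417-185428360), a fused enzyme that charges both glutamate and proline, went from 238, 236 and 250 CPM to 145, 147 and 141 CPM (-0.74, standard error 0.06, adjusted p = 1.34e-09). Wars (chr12:108860030-108894175), for tryptophan, went from 94.5, 106 and 106 CPM to 63.3, 59.9 and 60.7 CPM (-0.74, adjusted p = 5.05e-09). In each of these genes the lowest sgCtrl library stood well above the highest sgSgf29 library, which is likely for genes picked by large called changes.

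Vars (chr17:35000907-35016329), which charges valine, was at 391, 359 and 387 CPM in sgCtrl and at 225, 231 and 236 CPM in sgSgf29 (-0.72, standard error 0.06, adjusted p = 3.10e-09). Yars (chr4:129189734-129219240), for tyrosine, was at 208, 207 and 212 CPM and at 144, 128 and 115 CPM (-0.70, standard error 0.07, adjusted p = 3.41e-08). Sars (chr3:108424864-108445259), which charges serine, also onto the tRNA of selenocysteine, was at 364, 379 and 411 CPM and at 260, 232 and 231 CPM (-0.67, standard error 0.07, adjusted p = 2.98e-08). The sgSgf29 libraries of Yars spread more widely than its sgCtrl libraries, whose SD was 2.35 CPM against 14.4 CPM, but the groups stayed apart.

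The other called cytosolic enzymes fell by 0.66 (Farsa, Rars and Cars) to 0.22 (Dars) on the log2 scale. Farsa and Farsb, the catalytic and the partner subunit of the phenylalanine enzyme, fell by 0.66 and 0.63. The smallest called falls were those of Aars for alanine, -0.37 (adjusted p = 0.000104), Hars for histidine, -0.37 (3.18e-05), Qars for glutamine, -0.34 (6.64e-05), and Dars for aspartate, -0.22 (0.00459). With library size alone none of these 4 passed. Tarsl2 (chr7:65644898-65692093) was at 17.0, 20.6 and 15.7 CPM in sgCtrl and at 15.3, 17.0 and 17.3 CPM in sgSgf29, with overlapping groups (-0.10, standard error 0.11, adjusted p = 0.462). Tars, the main threonine enzyme of the cytosol, fell by 0.42.

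The mitochondrial enzymes covered a wider range, from -0.94 to -0.06. Ears2 (chr7:122034162-122067094), for glutamate, went from 17.9, 20.6 and 20.7 CPM to 7.09, 12.03 and 11.53 CPM (-0.94, standard error 0.14, adjusted p = 8.17e-06). Vars2 (chr17:35655634-35667639), for valine, went from 74.6, 81.8 and 74.7 CPM to 41.2, 39.1 and 40.8 CPM (-0.93, standard error 0.07, adjusted p = 2.09e-10). Mars2 (chr1:55237177-55240058), for methionine, went from 14.9, 17.9 and 15.4 CPM to 6.45, 8.61 and 10.2 CPM (-0.92, standard error 0.14, adjusted p = 7.56e-06). The standard errors of Ears2 and Mars2 were about as large as each other and wider than that of Vars2, which had 703 to 1496 counts per library against 121 to 415 for Ears2 and 110 to 308 for Mars2.

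Tars2 (chr3:95739974-95756365), for threonine, was at 193, 189 and 173 CPM in sgCtrl and at 110, 102 and 101 CPM in sgSgf29 (-0.83, standard error 0.07, adjusted p = 7.90e-10). Cars2 (chr8:11514017-11550781), for cysteine, was at 77.5, 74.2 and 69.2 CPM and at 40.3, 41.1 and 43.1 CPM (-0.83, standard error 0.07, adjusted p = 1.59e-09). Wars2 (chr3:99140107-99221230), for tryptophan, was at 21.2, 19.4 and 17.4 CPM and at 11.4, 11.8 and 11.0 CPM (-0.75, standard error 0.11, adjusted p = 3.71e-06). In all 6 of these mitochondrial genes the groups did not overlap. They were picked for large called changes, which makes separate groups likely, and 35.1% of all genes tested were lower without overlap. Aars2 and Yars2 followed with -0.64 and -0.62, and Sars2, Nars2, Pars2 and Rars2 with -0.51 to -0.33.

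At the small end, Iars2 passed with groups apart (-0.22, adjusted p = 0.00438). Hars2 was at 40.7, 44.7 and 33.2 CPM in sgCtrl and at 38.8, 37.1 and 36.2 CPM in sgSgf29 (-0.08, standard error 0.09, adjusted p = 0.463). Fars2 (chr13:36117428-36537595), the single-chain phenylalanine enzyme of the mitochondrion, was at 15.6, 14.1 and 18.8 CPM and at 17.1, 15.5 and 14.4 CPM (-0.06, standard error 0.12, adjusted p = 0.674). For Hars2 and for Fars2 every sgSgf29 value lies within the range of the sgCtrl values.

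Lars2 (chr9:123366927-123462675), the leucine enzyme of the mitochondrion, stood apart in level. It was at 888, 660 and 697 CPM in sgCtrl and at 617, 651 and 626 CPM in sgSgf29, or -0.24 on the log2 scale (standard error 0.09, adjusted p = 0.0174). The groups do not overlap, but sgCtrl library 1 lies far above its group, while the other sgCtrl libraries lie close to the sgSgf29 range. Without that library the estimate was -0.10 (adjusted p = 0.264), and the call was also lost without sgSgf29 library 1 (adjusted p = 0.0612) or 3 (0.0558). Lars2 alone took 48.2% to 55.5% of all counts of the mitochondrial enzymes in sgCtrl and 57.3% to 58.8% in sgSgf29. No reads were examined, so whether its counts include reads of another origin was not checked. The summed level of the mitochondrial enzymes was 1367 to 1599 CPM in sgCtrl and 1076.5 to 1108 CPM in sgSgf29. Without Lars2 it was 676 to 711 CPM and 457 to 464 CPM.

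**Figure D2:**
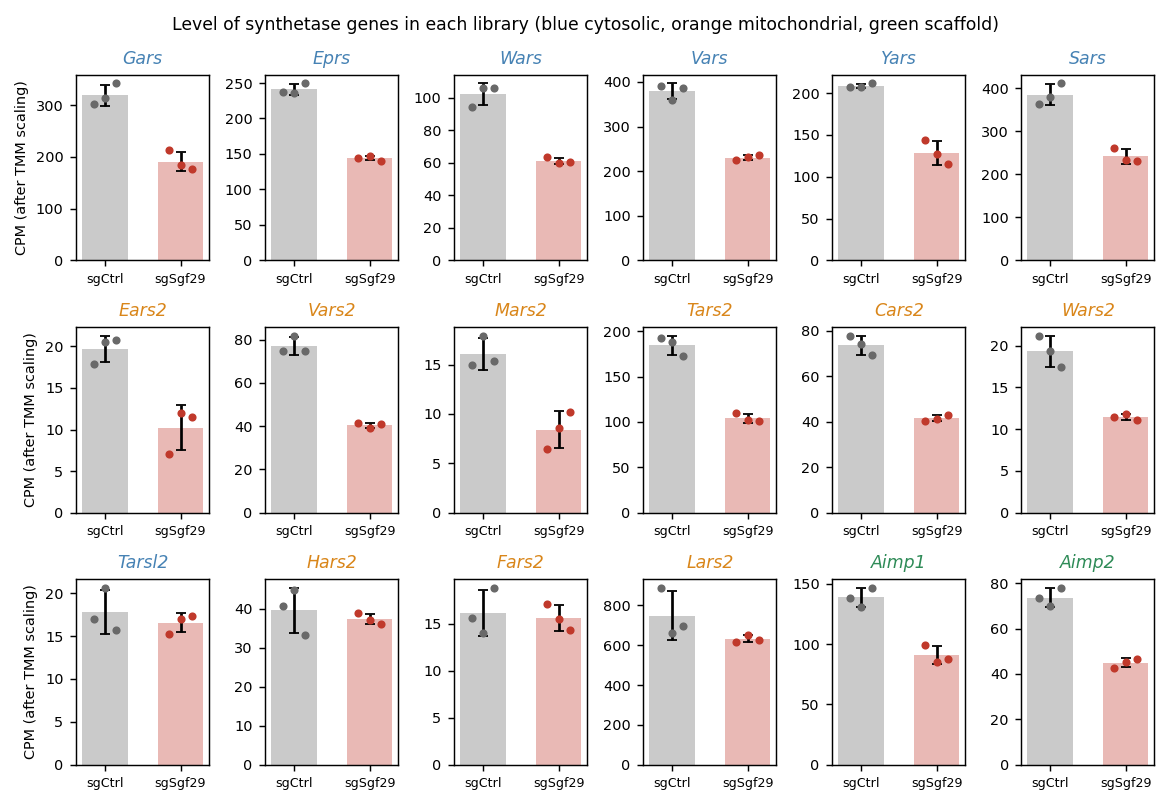
CPM after TMM scaling (vertical axis, from 0) in the 3 sgCtrl and the 3 sgSgf29 libraries for the 6 cytosolic (blue titles) and the 6 mitochondrial enzymes (orange) with the largest called changes, then for the 3 enzymes that did not pass, Lars2 and the scaffolds (green). Bar heights give the mean, whiskers the SD (n = 3) and points the libraries, and the groups overlap for Tarsl2, Hars2 and Fars2.

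The scaffolds were lower as well. Aimp1 (chr3:132660498-132684390), a scaffold that is also cut to a secreted cytokine, was at 139, 131 and 147 CPM in sgCtrl and at 99.3, 85.4 and 87.7 CPM in sgSgf29 (-0.61, standard error 0.07, adjusted p = 1.44e-07). Aimp2 (chr5:143902704-143909839), which binds several enzymes of the complex, was at 73.3, 69.8 and 78.0 CPM and at 42.7, 45.5 and 46.8 CPM (-0.71, standard error 0.07, adjusted p = 1.47e-08). All 10 genes of the multisynthetase complex measured here were lower, namely the scaffolds with Dars, Eprs, Iars, Kars, Lars, Mars, Qars and Rars. The median of the 8 enzymes of the complex was -0.53, and that of the 13 cytosolic enzymes outside it, 12 of them lower, was -0.66. By catalytic fold, 9 of 9 cytosolic class I enzymes (median -0.66) and 10 of 11 class II enzymes (median -0.48) were lower, with Eprs, which has a domain of each, counted in neither. Among the mitochondrial enzymes 9 of 9 of class I (median -0.75) and 6 of 8 of class II (median -0.41) were lower. Beside these counts, 37 of all 40 synthetase and scaffold genes and 34.4% of all genes tested were lower. The counts and medians are descriptions, and the differences between the groups of enzymes were not tested.

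Levels between genes were compared per kilobase of the principal transcript. In the sgCtrl cells the cytosolic enzymes had a median of 54.5 CPM per kb, with a range from 5.57 (Tarsl2) to 134 (Gars and Nars), and the mitochondrial enzymes a median of 12.5 CPM per kb. In the sgSgf29 cells these medians were 39.1 and 8.90 CPM per kb. Lars2 had the highest level of all 40 genes, 192 ± 31.4 CPM per kb (SD, n = 3) in sgCtrl and 162 ± 4.48 in sgSgf29. That level rests on counts whose origin was not checked. Tars2 came next among the mitochondrial enzymes with 77.0 ± 4.42 in sgCtrl and 43.5 ± 2.10 in sgSgf29. Gars and Nars, at 134 ± 8.62 and 134 ± 7.83 in sgCtrl, did not differ beyond their spread. The lowest value, 1.42 ± 0.14 CPM per kb in sgCtrl, was that of Mars2. Its length was taken from a GENCODE transcript of 11294 bases, which is longer than the RefSeq span of the gene (chr1:55237177-55240058). The value is therefore probably too low, and whether Mars2 has the lowest level is not settled. The cytosolic enzymes together took 0.349% to 0.373% of gene counts in sgCtrl and 0.278% to 0.291% in sgSgf29, and the mitochondrial enzymes 0.126% to 0.147% and 0.114% to 0.122%. Without Lars2 the mitochondrial share was 0.0621% to 0.0660% in sgCtrl and 0.0487% to 0.0506% in sgSgf29.

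**Figure D3:**
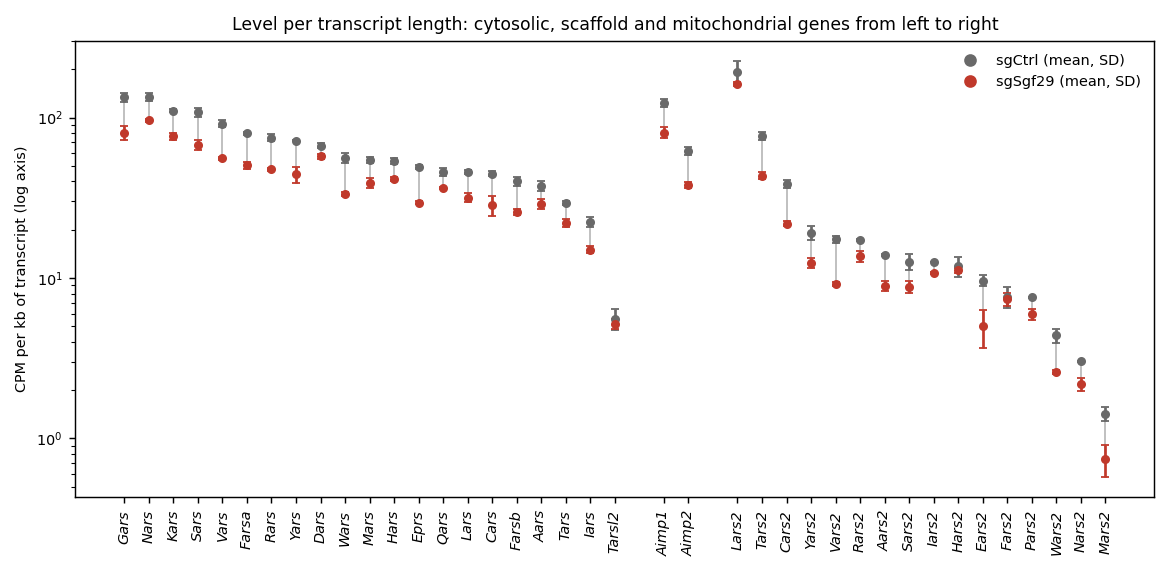
Level per kilobase of the principal transcript (CPM per kb after TMM, logarithmic vertical axis) for 39 of the 40 genes, with cytosolic enzymes, scaffolds and mitochondrial enzymes from left to right, each ordered by its sgCtrl level. Points are means and bars the SD of 3 libraries, in grey for sgCtrl and red for sgSgf29. Lars2 lies highest of the 40 genes and Mars2 lowest in both groups. The place of Mars2 rests on a transcript of 11294 bases, longer than its RefSeq span, and is not settled.

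For 15 amino acids a cytosolic and a mitochondrial enzyme were set side by side, with Eprs used for both glutamate and proline. The estimate was lower for the mitochondrial gene in 7 pairs and for the cytosolic gene in 8. The largest differences toward the mitochondrial gene were those of methionine (Mars -0.48, Mars2 -0.92) and threonine (Tars -0.42, Tars2 -0.83). For methionine the groups overlapped, with a ratio of Mars to Mars2 counts of 10.8, 8.56 and 10.8 in sgCtrl and 19.2, 13.2 and 10.6 in sgSgf29. The ratio of Tars to Tars2 counts was 0.601, 0.614 and 0.697 in sgCtrl and 0.852, 0.835 and 0.846 in sgSgf29. The largest differences toward the cytosolic gene were those of proline (Eprs -0.74, Pars2 -0.34), isoleucine (Iars -0.58, Iars2 -0.22) and arginine (Rars -0.66, Rars2 -0.33). The ratio of Iars to Iars2 counts was 1.35, 1.55 and 1.45 in sgCtrl and 1.14, 1.19 and 1.06 in sgSgf29. For tryptophan (Wars -0.74, Wars2 -0.75) and asparagine (Nars -0.48, Nars2 -0.47) the estimates of both genes were close.

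The ratio within each pair was tested between groups with a two-sided exact permutation test of 3 libraries against 3, which cannot give a p below 0.1. Of the 15 pairs 7 reached that value, 4 in which the cytosolic gene had the lower estimate (proline, isoleucine, arginine and histidine) and 3 in which the mitochondrial gene did (valine, alanine and threonine). At that limit no pair could have passed a threshold of 0.05, so these are differences without overlap between the groups and not calls. With Benjamini-Hochberg adjustment over the 15 pairs, the permutation p of each of these 7 was 0.214. How often pairs of other genes separate in this way was not computed, so the count has no background beside it. The ratio does not depend on how the libraries are scaled.

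**Figure D4:**
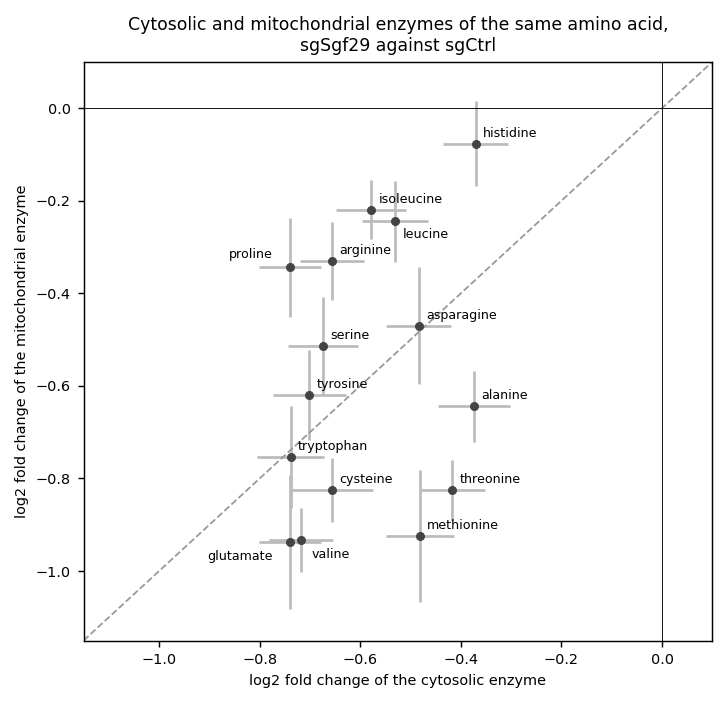
Log2 fold change of the mitochondrial enzyme (vertical axis) against that of the cytosolic enzyme (horizontal axis) for 15 amino acids, sgSgf29 against sgCtrl. Bars are standard errors of edgeR's fit and the dashed line marks equal change, with 7 amino acids such as methionine and threonine below it and 8 such as proline and isoleucine above it.

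Of the 40 genes 17 share annotated exonic bases with another gene, 16 with a gene on the opposite strand and 2 with a gene on the same strand (Aars with Exosc6 and Tarsl2 with Tm2d3). The widest overlaps are those of Aimp2 with Eif2ak1, 29.4% of the exonic bases of Aimp2, and of Iars2 with Rab3gap2, 22.9%. Hars and Hars2 are neighbours on opposite strands that share 195 exonic bases. The library kit was directional, but the sources used here do not say whether strand was used in counting, so reads of these stretches cannot be assigned with certainty. Among the enzymes with the largest changes, Vars2 shares 8.5% of its exonic bases, Cars2 5.8%, Ears2 1.7% and Yars 0.5% with a gene on the other strand, while Gars, Eprs, Wars, Vars, Sars, Mars2, Tars2 and Wars2 share none.

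Genes that act on tRNA before and after charging were read from the same fit. Of 4 accessory genes of mitochondrial charging, 2 were lower and 0 were higher, against 34.4% lower and 35.4% higher of all genes tested, so that with 4 genes this count lies near the background. Gatb, a subunit of the amidotransferase that makes glutaminyl-tRNA in the mitochondrion, went from 32.3, 29.8 and 26.0 CPM to 17.5, 17.3 and 19.3 CPM (-0.70, adjusted p = 2.38e-06), and Mtfmt, which formylates the initiator methionyl-tRNA, fell by 0.35 (adjusted p = 0.00326). Gatc measured 0.26 (adjusted p = 0.0516) and Qrsl1 -0.03 (adjusted p = 0.823), both of the same amidotransferase as Gatb. Gatc passed as higher under 7 of the 14 alternative settings, and Mtfmt as lower under 13 of them, the exception being scaling by library size alone. Of 7 genes of proofreading and release of mischarged or stalled tRNA, 3 were lower and 0 were higher, and 3 of 7 is also near the 34.4% of all genes. The peptidyl-tRNA hydrolase Ptrh2 fell by 0.64 (adjusted p = 2.01e-07). The editing factor Aarsd1, at 0.50 to 2.01 CPM in sgCtrl and at 0.352 to 0.586 CPM in sgSgf29 with overlapping groups, fell by 1.42 (adjusted p = 0.0100), and its call was lost without sgCtrl library 1 (adjusted p = 0.0524) or 2 (0.0690).

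Of 29 tested genes of tRNA cleavage, splicing, end maturation and export, 24 were lower and 3 were higher, with a median of -0.46, where 34.4% of all genes tested were lower and 35.4% higher. Xpot, the exporter that carries tRNA out of the nucleus, went from 163, 169 and 180 CPM to 102, 100.1 and 97.3 CPM (-0.77, adjusted p = 1.13e-09). Rpp40, a subunit of ribonuclease P, which trims the 5′ end, went from 19.6, 18.1 and 19.5 CPM to 6.91, 6.54 and 8.16 CPM (-1.41, adjusted p = 1.87e-09), and Pop1 of the same enzyme fell by 0.98 (7.76e-09). The genes that rose were Tsen34, of the splicing endonuclease (0.75), Elac1 (0.70) and Zbtb8os (0.25). Of 71 genes of tRNA base modification, 45 were lower and 3 were higher, with a median of -0.39, read against the same shares of all genes. Pus7, a pseudouridine synthase, fell by 1.33 (adjusted p = 1.10e-12), Nat10, which acetylates cytidine in tRNA and ribosomal RNA, by 1.06 (9.81e-12) and Trmt1, a methyltransferase, by 1.13 (6.46e-11). Trmt12, Ctu1 and Tprkb were higher, by 0.57, 0.36 and 0.21, and without sgCtrl library 1 only 1 gene of this list was higher.

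Of 31 tested genes of ATF4 and the response to amino acid shortage, a list that holds no synthetase, 21 were lower and 5 were higher, with a median of -0.54, against 34.4% and 35.4% of all genes tested. Atf4 itself was at 414, 417 and 403 CPM in sgCtrl and at 258, 248 and 225 CPM in sgSgf29 (-0.75, adjusted p = 2.77e-09). Psat1, of serine synthesis, went from 390, 394 and 412 CPM to 147, 128 and 131 CPM (-1.56, adjusted p = 6.61e-14). Slc1a5, a glutamine transporter, went from 431, 424 and 359 CPM to 177, 177 and 170 CPM (-1.21, adjusted p = 7.94e-12), and Shmt2, which passes carbon from serine to folate in the mitochondrion, fell by 0.95 (4.52e-11). The 5 that rose were Cebpg, Eif2ak3, Cebpb, Atf3 and Nupr1, by 0.36 to 0.70. With library size alone, where 21.4% of all genes were lower and 49.9% higher, 31 genes of base modification were lower and 11 higher, 19 and 8 of the ATF4 list, 17 and 4 of cleavage and splicing, 3 and 2 of proofreading, and 1 and 1 of the charging accessory genes. The genes with CARE letters in the windows above, Aars, Gars, Iars, Tars and Yars, had log2 fold changes of -0.37, -0.74, -0.58, -0.42 and -0.70. The cytosolic median of -0.58 includes these genes and those for which no window was used. Cytosolic genes with a window but no CARE letters ran from -0.74 (Eprs) to -0.10 (Tarsl2), and no difference was tested.

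**Figure D5:**
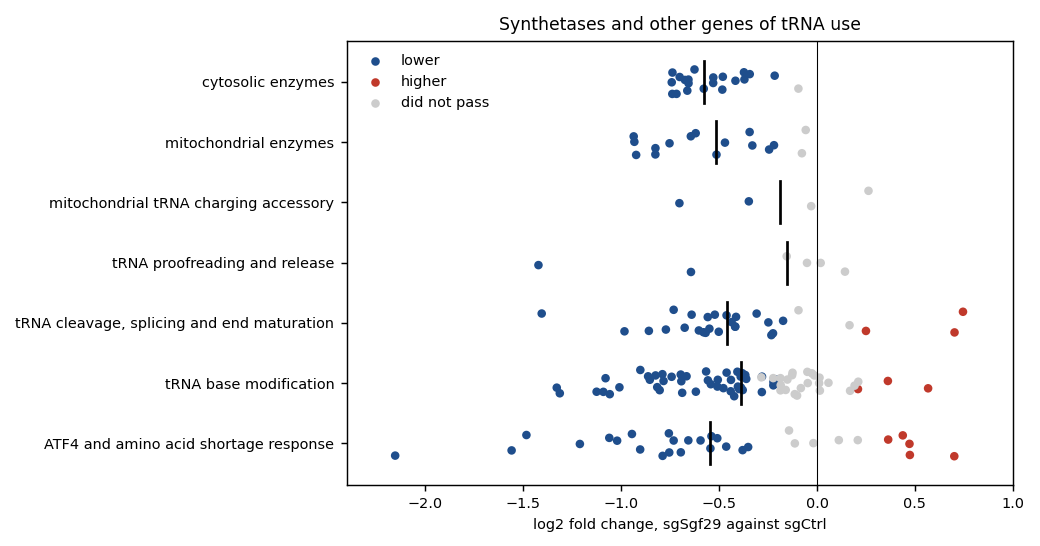
Log2 fold change of sgSgf29 against sgCtrl (horizontal axis) for the tested genes of the cytosolic and mitochondrial enzymes and of 5 lists of related genes, 1 point per gene shown with vertical scatter for display only. Blue points were lower and red points higher at an adjusted p of 0.05, grey points did not pass, and the black bars are medians, which run from -0.58 for the cytosolic enzymes to -0.15 for proofreading and release.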

How the data were processed

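RNA-seq of 6 libraries (3 sgCtrl, 3 sgSgf29) was analysed. The authors deposited 1 table of raw counts, 1 row per gene. The submitters' processing notes name STAR 2.6.0a, edgeR and the GRCm38 build, while the paper's methods name featureCounts and the table has 5 entries for unassigned reads of the kind that htseq-count writes. These entries (25.8% to 31.4% of each library) entered neither the library sizes nor the tests. Annotation and strand setting: not given in the sources used here.

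Genes were kept by filterByExpr (count of 10, total of 15), which left 11169, and scaled by TMM. Groups were compared by quasi-likelihood F-tests (edgeR 4.0.16, R 4.3.3), p-values were adjusted by Benjamini-Hochberg over all genes tested, and genes were called at an adjusted p under 0.05. Standard errors are the log2 fold change over the square root of F. The biological coefficient of variation was 6.61%. The procedure was tested on simulated data. Alternatives were other scalings, no filter, DESeq2 1.42.0, limma-voom (limma 3.58.1), a replicate block, each library left out, and Tarsl2 counted as mitochondrial. Within a group, every pair of libraries differed by more than the noise of counting (chi-square 4.60 to 16.0 times its degrees of freedom).

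The members, lists and markers were chosen with earlier results of these data known. Values in every library were given for the 6 enzymes of each compartment with the largest called changes, those not called and the scaffolds, and for Sgf29, and up to 3 called genes per list with the smallest adjusted p were named. 1 enzyme and 1 listed gene are included in the counts, medians and sums but not reported singly here, in the figures or in the pairs. Lars2, Atf4, the genes that rose, the accessory genes that did not pass and Itgam were named after their values were seen. Gene positions and promoter windows follow RefSeq on GRCm38.p6. The principal transcripts, with their lengths, and the exonic bases shared with other genes follow GENCODE for GRCm38.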

Additional observations from a re-analysis of the deposited data

How the results depend on the processing

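With library size alone, which moved the median of all genes from 0.01 to 0.24 and the calls over all genes from 3842 lower and 3957 higher to 2385 lower and 5575 higher, the median of the cytosolic enzymes was -0.35 and that of the mitochondrial enzymes -0.28, with 9 mitochondrial enzymes lower. The estimates of Dars (0.015), Iars2 (0.012), Tarsl2 (0.14), Fars2 (0.17) and Hars2 (0.15) reversed on that scale, and Aars, Hars, Qars, Lars2, Nars2, Pars2 and Rars2 were among those that lost their calls. The other scalings, no filter, DESeq2, limma-voom and the placing of Tarsl2 left 20 cytosolic and 14 or 15 mitochondrial enzymes lower, and 0 higher. Under these other scalings and methods 3684 to 3913 of all genes were lower and 3689 to 4150 higher. As log2 ratios of group means, the summed levels were -0.34 (cytosolic) and -0.17 (mitochondrial) as shares of gene counts, and -0.57 and -0.41 as CPM after TMM. Without Lars2, an alternative chosen after seeing the data like the next, the mitochondrial values were -0.37 and -0.60. Leaving out each library moved the shares to between -0.37 and -0.32 (cytosolic) and between -0.21 and -0.10 (mitochondrial, the last without sgCtrl library 1). Leaving out each library gave 20 lower cytosolic enzymes each time, 13 to 15 lower mitochondrial enzymes, and medians of -0.63 to -0.54 and -0.57 to -0.44. Over all genes these fits gave 3430 to 3833 lower and 3662 to 3943 higher. The estimates that did not pass ran from -0.18 to 0.019 (Tarsl2), from -0.20 to 0.016 (Hars2) and from -0.15 to 0.071 (Fars2), positive without sgCtrl library 2 for Tarsl2 and Hars2 and without sgCtrl library 3 or sgSgf29 library 3 for Fars2. Hars2 passed without sgCtrl library 3 (adjusted p = 0.0295). Over the 40 genes and all alternatives, 534 estimates kept direction and call, 16 lost the call, 1 gained it and 9 reversed; the cause was not tested.

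Libraries with the same replicate number deviated together only weakly (r = 0.03, 0.08 and 0.12 over genes), so the numbers were not taken as pairs. With the number as a block, 20 cytosolic (median -0.58) and 15 mitochondrial enzymes (median -0.51) were lower, and over all genes 3937 were lower and 4059 higher. Not every library correlated best with its own number, since sgSgf29 1 did so with sgCtrl 2. The low counts of Ears2, Mars2 and Nars2 limit the precision of their changes.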
